A study of Mus musculus with 10 samples.

Results

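Spontaneous mouse lymphomas are sampled with the stroma in which they grew, and 8 genes that mark stromal sites of the spleen and of lymph nodes were followed here: Nkx2-3, Tlx1, Madcam1, Spic, Stab2, Lyve1, Prox1 and Glycam1. They were taken as every non-control probe whose gene name in the array files is one of these names, which gave 12 probes of 41174, and 7 of the 8 genes passed the filter on dim probes that left 17804 genes for testing. The 8 genes were selected on what is known of their sites of expression with values of these same arrays already in view, so their levels are given as a description and no p-value was adjusted over the 8 genes alone. Lymphomas came from 5 C/EBPβ LIP heterozygous mice (+/L) and 5 wild-type mice (+/+), with 1 single-colour Agilent array of total RNA per mouse. LIP is the short isoform of the transcription factor C/EBPβ. The +/L mice were labelled 11 to 21 months old (mice 866, 688, 23, 517 and 20, with 4 of 5 labelled female) and the +/+ mice 20 to 29 months old (mice 17, 19, 40, 101 and 11, with 3 of 5 labelled female), so age and genotype are partly confounded. No treatment is recorded, both groups were kept in the same way until a palpable lymphoma was found, and the labels give the tissue as lymphoma without the organ from which it was cut.

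Of the array facts that bear on these genes, 48.0% to 64.7% of probes in +/L arrays and 52.9% to 66.7% in +/+ arrays were well above background, and no spot was saturated. Cebpb itself, which carries the altered allele, averaged 2.69 (SD 0.72) in the 5 +/L tumours, against 3.42 (SD 0.81) in the 5 +/+ tumours (limma adjusted p = 0.66), which does not check the labels, since the allele is not described there as changing the transcript's amount. The sex-linked transcripts did not match the labelled sex in 2 of 10 arrays, mice 20 and 11. The slides numbered below are groups of arrays with the same barcode entry in the file header. An entry that names no slide would also form a group and would be numbered last, as slide 3 (mice 866, 101 and 19). Slide 3 may therefore not be a physical slide. The grouping by barcode entry differed from the slide in the description label for 2 other arrays, mice 866 and 17. Results without either pair stand beside the main ones. Over all genes, 0 of 17804 passed an adjusted p under 0.05 between genotypes (0%), while 1525 had an unadjusted p under 0.05 (8.57%), 558 of them higher in +/L (3.13%), by limma. In bulk tumour RNA, fewer cells of a stromal type and less RNA per cell cannot be told apart.

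In the mouse, Nkx2-3 and Tlx1 are homeobox transcription factors of the mesenchyme from which the spleen forms, and Nkx2-3 also serves vessels of gut-associated lymphoid tissue, where the addressin MAdCAM-1 is made. Spi-C is the transcription factor of red pulp macrophages, which recycle iron from red cells. Stabilin-2 and LYVE-1 bind hyaluronan on sinusoidal and lymphatic endothelium, Prox1 sets lymphatic identity, and GlyCAM-1 is a mucin-like ligand of L-selectin that high endothelial venules of lymph nodes secrete. Levels below are log2 of the processed signal over the 75th percentile of its own array, so that 0 is the 75th percentile, and they compare tumours for 1 gene and never genes with each other.

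Among the spleen-associated members, Nkx2-3 separated 2 +/+ tumours from all the others. It was measured by 1 probe (A_51_P368123, mm9 chr19:43689699-43689757, plus strand) that was well above background on all 10 arrays. In +/L tumours its level was -0.64 in mouse 20, -0.03 in 23, -0.33 in 517, 0.46 in 688 and 0.61 in 866, against -1.26 in mouse 11, -4.14 in 17, -0.25 in 19, -4.73 in 40 and -0.90 in 101 among +/+ tumours. The 5 +/L tumours lay close together, mice 17 and 40 were far below everything else, and mouse 19 lay within the +/L range, so the groups overlapped. The difference was 2.27 ± 0.84 on the log2 scale (+/L minus +/+, SE), with a limma adjusted p of 0.55 over all genes. It was 4.34 within slide 1, which holds mice 17 and 40, and 1.09 and 1.19 within slides 2 and 3. With slide, as the file headers give it, as a block it was 2.51. In the authors' value table it was 1.05, and with normexp background correction and quantile normalisation 1.27.

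Tlx1 stood out in a single tumour. Its only probe (A_52_P58359, mm9 chr19:45231061-45231120, plus strand) was well above background on 2 of 10 arrays, both +/L, and did not pass the filter, so it was not tested. In +/L tumours the level was -0.38 in mouse 20, -4.78 in 23, -5.80 in 517, -7.99 in 688 and -5.83 in 866, against -6.10 in mouse 11, -6.75 in 17, -6.81 in 19, -7.29 in 40 and -6.54 in 101 among +/+ tumours. Mice 20 and 866 were the arrays above background, and mouse 20 was far above all others. Because no +/+ array was well above background, the group comparison is only a bound: at least 1.16-fold higher in +/L, from measured means of -4.96 in +/L and -6.70 in +/+. Without mouse 20 the +/L mean was -6.10, below the lowest level that those +/+ arrays could measure (-5.17 on average), and no bound remained.

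Spic, the red pulp macrophage factor, was measured in every tumour and varied least of the 8 genes. With its probe A_52_P361323 (mm9 chr10:88138166-88138225, minus strand), +/L levels were 0.45 in mouse 20, 0.49 in 23, 0.34 in 517, 0.75 in 688 and 1.81 in 866, against 0.24 in mouse 11, 0.82 in 17, 1.10 in 19, 0.67 in 40 and 0.90 in 101. Mouse 866 was high and all others lay within 1 log2 unit of each other. The genotype difference was 0.02 ± 0.30 (SE, 95% interval -0.65 to 0.69, limma adjusted p = 0.99). A neighbouring probe (A_51_P389885, chr10:88138053-88138112) ran parallel, higher by 1.83 ± 0.10 in the 9 arrays that have both (SD), and again put mouse 866 first at 3.53. Within the slides the difference was -0.15, 0.18 and 0.81, and with slide as a block 0.22. Its sign turned to -0.74 with age as a covariate.

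**Figure D1:**
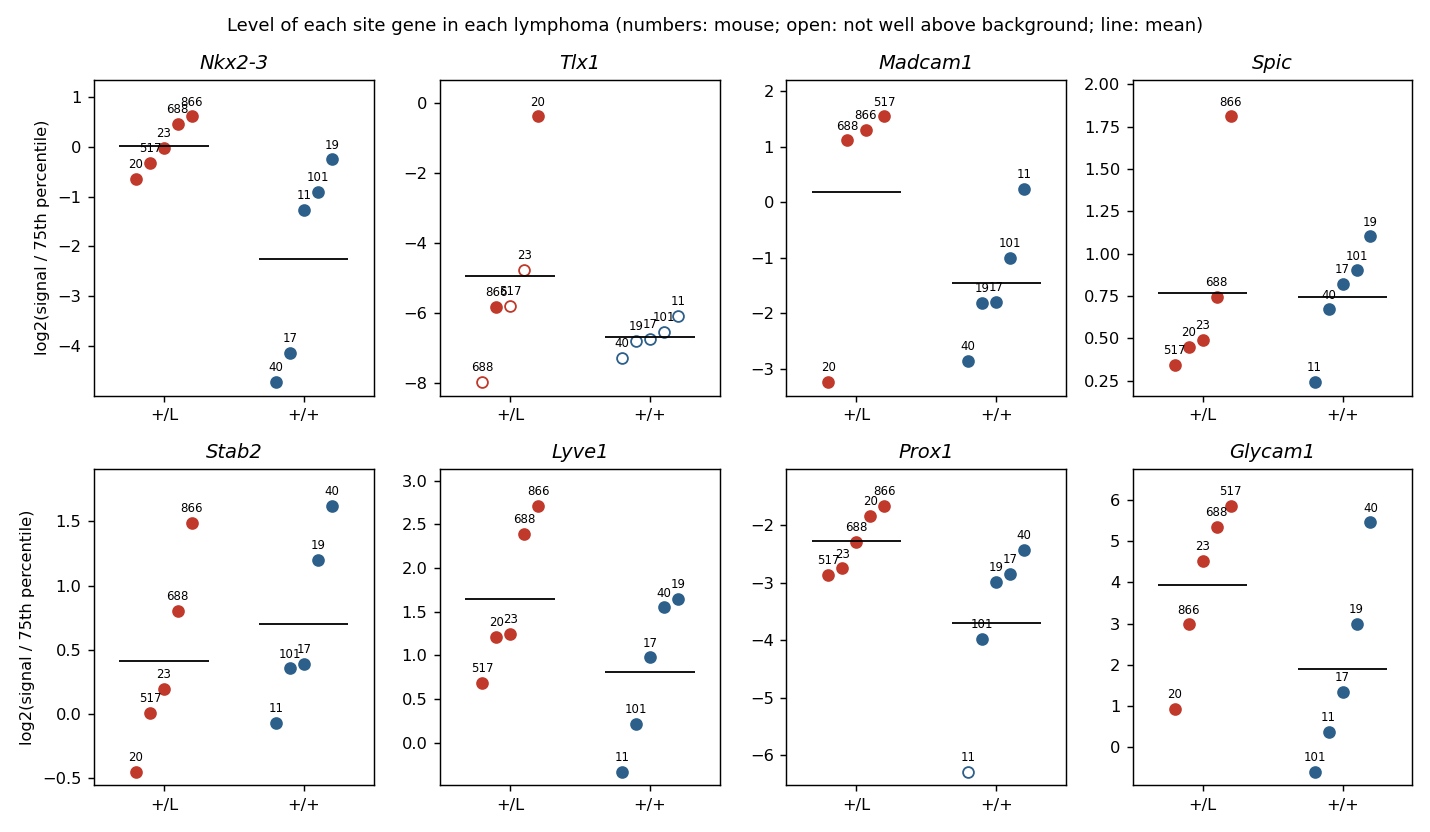
Level of each site gene in each lymphoma, as log2 of the signal over the array's 75th percentile, with the 5 +/L tumours left of the 5 +/+ tumours, mouse numbers over the points, open points not well above background and lines at group means (Madcam1 has 4 +/L values). Nkx2-3 is low in +/+ mice 17 and 40, Tlx1 is high in +/L mouse 20, and the groups overlap for all 8 genes.

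Madcam1 and Stab2 are found at both sites. Madcam1 encodes the vessel addressin that α4β7 integrin binds, and in the mouse it occurs on high endothelial venules of mesenteric nodes and Peyer's patches and on cells lining the marginal sinus of the spleen. In +/L tumours Madcam1 was -3.25 in mouse 20, 1.55 in 517, 1.12 in 688 and 1.31 in 866, with the spot of mouse 23 left out as an outlier by the scanner software, against 0.24 in mouse 11, -1.79 in 17, -1.81 in 19, -2.87 in 40 and -1.01 in 101. Mice 517, 688 and 866 were above every +/+ tumour, and mouse 20 was below every one. The fit on 9 arrays gave 1.63 ± 1.02 (SE, limma adjusted p = 0.68), and 2.77 without mouse 20. The spot flagged in mouse 23, when kept, left it at 1.69. Within the slides the difference was 1.26, 1.31 and 2.72, and with slide as a block 1.72.

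The probe for Madcam1 is shown because its mm9 interval is longer than its 60 bases, as for a probe that crosses a splice junction (chr10:79127883-79128194, plus strand):
Madcam1 A_51_P517745: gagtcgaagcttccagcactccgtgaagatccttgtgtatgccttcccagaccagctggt
Upstream of Madcam1, the RefSeq promoter window (GRCm38.p6 chr10:79664309-79664558, plus strand, the 250 bases before the start) holds 1 match to AAGTG, the core to which NKX2-type homeodomains bind, 100 bases before the start and in capitals here:
Madcam1 upstream: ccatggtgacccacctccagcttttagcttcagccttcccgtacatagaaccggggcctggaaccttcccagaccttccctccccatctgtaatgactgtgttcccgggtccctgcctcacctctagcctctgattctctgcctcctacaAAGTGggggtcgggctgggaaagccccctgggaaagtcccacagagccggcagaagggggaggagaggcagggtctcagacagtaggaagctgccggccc
AAGTG or its reverse complement CACTT occurs in 40.7% of 32851 RefSeq windows of the same length, so a match is common. Of the 7 members listed there, Spic and Prox1 also hold one and Nkx2-3, Tlx1, Stab2 and Glycam1 do not. Mouse 20 had the lowest Nkx2-3 and Madcam1 levels among +/L tumours, and mouse 40 among +/+ tumours. The order was not shared by the other +/+ tumours. Nkx2-3 was -4.14 in mouse 17 and -0.25 in mouse 19, where Madcam1 was -1.79 and -1.81. Mouse 11 had the highest Madcam1 level of the +/+ tumours, 0.24, with Nkx2-3 at -1.26. An effect of Nkx2-3 on Madcam1 was not tested.

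Stab2, a scavenger receptor of sinusoidal endothelium in liver, spleen and lymph node, was -0.45 in mouse 20, 0.19 in 23, 0.01 in 517, 0.80 in 688 and 1.49 in 866 among +/L tumours, against -0.07 in mouse 11, 0.39 in 17, 1.20 in 19, 1.62 in 40 and 0.35 in 101. Mice 40, 866 and 19 were high, with both genotypes at each end. Its difference was -0.29 ± 0.43 (SE, limma adjusted p = 0.88), and -0.83, 0.17 and 0.71 within the slides with -0.10 under the slide block. With age as a covariate it was -1.11. The probe is A_51_P402846 (mm9 chr10:86304198-86304257, minus strand).

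Among the node-associated members, Glycam1 covered the widest range of the 7 site genes tested. Its probe (A_52_P602847, mm9 chr15:103393339-103393398, minus strand) was well above background on all 10 arrays, and is printed because it is the readout for the venule side of the comparison:
Glycam1 A_52_P602847: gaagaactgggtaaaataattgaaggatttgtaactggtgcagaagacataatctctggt
In +/L tumours Glycam1 was 0.92 in mouse 20, 4.52 in 23, 5.86 in 517, 5.35 in 688 and 2.98 in 866, against 0.36 in mouse 11, 1.33 in 17, 2.99 in 19, 5.45 in 40 and -0.60 in 101. Mice 517, 40, 688 and 23 formed the upper end and mice 101, 11 and 20 the lower, so that the high end held 3 +/L tumours and 1 +/+ tumour. The difference was 2.02 ± 1.23 (SE, limma adjusted p = 0.67). It was -0.26 within slide 1 and 4.83 and 1.78 within slides 2 and 3, with 1.78 under the slide block. GlyCAM-1 is also a milk protein, and 2 of the 7 mammary markers listed passed the filter: Csn3, which encodes kappa-casein, and Lalba, which encodes alpha-lactalbumin. Csn3 lay between -3.98 and -0.95 among +/L tumours, against -2.33 to 3.21 among +/+ tumours, with its highest value in mouse 11, where Glycam1 was among the lowest. Lalba differed by -1.10 on the log2 scale, +/L minus +/+ (limma adjusted p = 0.57). It was highest in mouse 101 at -0.58, where Glycam1 was lowest, and next in mouse 40 at -0.70, where Glycam1 was 5.45. A mammary part in the Glycam1 level was not tested.

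Prox1, the transcription factor that sets lymphatic endothelial identity, was read by 3 probes, of which 1 passed the filter. The brightest (A_52_P563908, mm9 chr1:191942646-191942705, minus strand) was well above background on 9 arrays, while A_51_P369056 was so on 1 and A_51_P369058 on 2. The brightest is annotated on the array to a transcript outside RefSeq, and the Prox1 part of the node mean below rests on it. With the brightest, +/L levels were -1.85 in mouse 20, -2.76 in 23, -2.87 in 517, -2.30 in 688 and -1.67 in 866, against -6.28 in mouse 11, -2.85 in 17, -2.99 in 19, -2.43 in 40 and -3.98 in 101. Mice 11 and 101 were low, mouse 11 not being above background, and the other +/+ tumours lay within or just below the +/L range. The difference was 1.42 ± 0.66 (SE, limma adjusted p = 0.59). It was 0.78 without mouse 11, 0.20 with age as a covariate and 0.30 in the authors' value table. Within the slides it was 0.57, 3.47 and 1.82, and with slide as a block 1.75.

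The probe A_51_P369058 is shown because its interval too is longer than the probe (mm9 chr1:191977369-191984426, minus strand). It put mouse 20 highest at -2.34, where the brightest probe put mouse 866. Mouse 11 was lowest with both probes, here at -7.38:
Prox1 A_51_P369058: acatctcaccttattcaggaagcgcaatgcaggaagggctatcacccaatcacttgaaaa
The gap to the brightest probe varied by an SD of 1.20 over the 10 arrays. Since this probe was well above background on 2 arrays, 1 per genotype (mice 20 and 17), that gap and the order of the other tumours are those of values near background.

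Lyve1, a hyaluronan receptor of lymphatic endothelium that some macrophages and sinusoidal cells also carry, had 2 probes above background on all 10 arrays. With A_52_P686785 (mm9 chr7:117994171-117994230, minus strand), +/L levels were 1.21 in mouse 20, 1.24 in 23, 0.69 in 517, 2.39 in 688 and 2.71 in 866, against -0.33 in mouse 11, 0.98 in 17, 1.65 in 19, 1.55 in 40 and 0.21 in 101. Mice 866 and 688 were above every +/+ tumour, and mice 11 and 101 below every +/L tumour. The difference was 0.84 ± 0.50 (SE, limma adjusted p = 0.66), and 0.95 with the other probe (A_51_P155052, chr7:117995668-117995726). Within the slides it was 0.54, 1.30 and 1.78, and with slide as a block 1.11. With age as a covariate it turned to -0.29.

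Across the members, 6 of the 7 tested genes were higher in +/L, with Spic among them at 0.02. Over all 17804 genes, 8571 were higher. The median difference was 1.42 for the members, against -0.02 over all genes. None of the 7 passed the adjusted threshold. Of the 7, 1, Nkx2-3, had an unadjusted limma p under 0.05, where 3.13% of all genes were higher at that level. With age as a covariate the differences were 2.39 for Nkx2-3, 1.15 for Madcam1, 0.20 for Prox1 and 1.84 for Glycam1. Those of Spic, Stab2 and Lyve1 were then -0.74, -1.11 and -0.29. Without mice 866 and 17 the differences were 1.65 for Nkx2-3, 1.17 for Madcam1, -0.22 for Spic, -0.64 for Stab2, 0.61 for Lyve1, 1.48 for Prox1 and 2.11 for Glycam1. Without mice 20 and 11 they were 2.68 for Nkx2-3, 3.19 for Madcam1, -0.03 for Spic, -0.27 for Stab2, 0.66 for Lyve1, 0.67 for Prox1 and 2.38 for Glycam1. With the slide of the description labels as a block they were 3.09 for Nkx2-3, 2.08 for Madcam1, 0.26 for Spic, -0.45 for Stab2, 0.90 for Lyve1, 1.89 for Prox1 and 1.02 for Glycam1. None passed the adjusted threshold in these fits, and the lowest limma adjusted p of any member over all alternatives was 0.19, for Madcam1 without mice 20 and 11.

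**Figure D2:**
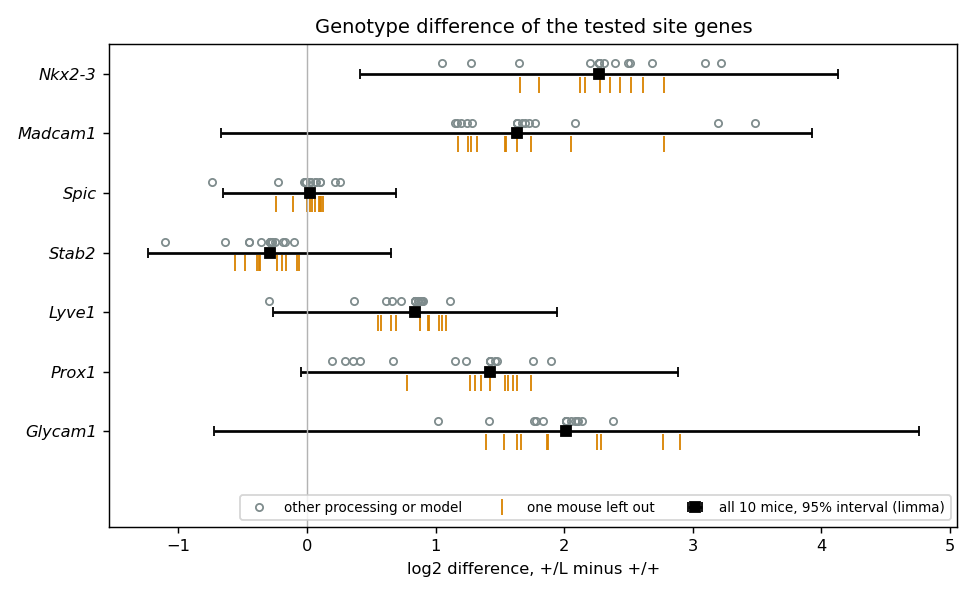
Difference between +/L and +/+ tumours (log2, +/L minus +/+) of the 7 tested site genes, with squares and 95% intervals from limma on all 10 mice, open circles for other processing or models and orange ticks for fits with one mouse left out. Nkx2-3 has the only interval that lies above 0, Spic and Lyve1 have circles on both sides of 0, and every adjusted p is above 0.05.

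To set spleen against node in each tumour, levels were centred on each gene's mean over the 10 tumours and averaged over Tlx1, Nkx2-3 and Spic for the spleen side and over Glycam1, Prox1 and Lyve1 for the node side. Mouse 20 (+/L) had the highest spleen mean, 1.87, with a node mean of -0.29, and a difference of 2.16 that rests largely on Tlx1. Mice 11 and 101 (+/+) had differences of 2.16 and 1.72, and there the spleen means were near the average, -0.31 and -0.12, while the node means were the lowest, -2.47 and -1.84. Mouse 40 (+/+) had the lowest spleen mean, -1.72, with a node mean of 1.14, and so the lowest difference, -2.86. That spleen mean rests largely on Nkx2-3, at -4.73, since Spic was 0.67 there and Tlx1 was not well above background. Mouse 688 (+/L) had the highest node mean, 1.43, with a spleen mean of -0.20 and a difference of -1.63. Tlx1 was not well above background on 8 of the 10 arrays. Without it the difference was 0.38 in mouse 20 and -0.65 in mouse 688, against 2.14 in mouse 11, 2.02 in mouse 101 and -2.99 in mouse 40.

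The other 5 tumours lay between these. The differences were 0.01 in mouse 23, -0.71 in 517 and -0.03 in 866 among +/L tumours, against -0.73 in mouse 17 and -0.09 in 19 among +/+ tumours. In mouse 866 both means were above average (0.93 and 0.96), and in mouse 17 both were below it (-1.29 and -0.56). By genotype, the spleen mean was 0.67 ± 0.80 in +/L and -0.67 ± 0.79 in +/+, the node mean 0.71 ± 0.63 in +/L, against -0.71 ± 1.46 in +/+, and their difference -0.04 ± 1.40 in +/L and 0.04 ± 2.02 in +/+ (SD, n = 5 each). Both means were higher on average in +/L, but the genotypes overlapped in each. The spleen mean ranged from -0.20 to 1.87 in +/L, against -1.72 to 0.08 in +/+ tumours. The node mean ranged from -0.29 to 1.43 in +/L, against -2.47 to 1.14 in +/+ tumours. The spleen-minus-node difference overlapped too, with a range of -1.63 to 2.16 in +/L and -2.86 to 2.16 in +/+ tumours. Without Tlx1 the range was -0.66 to 0.43 in +/L (SD 0.53), against -2.99 to 2.14 in +/+ (SD 2.15). No test was made of these means.

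**Figure D3:**
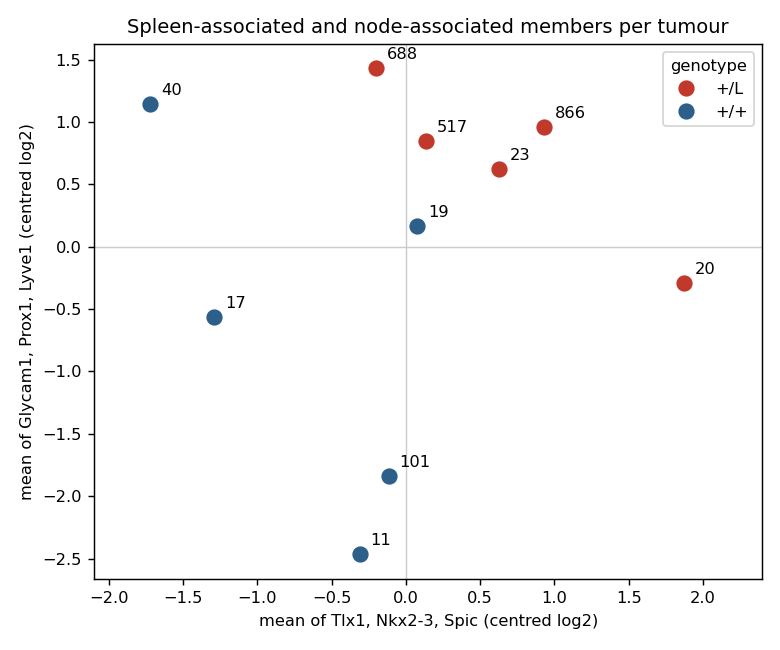
Mean of the spleen-associated members (Tlx1, Nkx2-3, Spic) on the horizontal axis and of the node-associated members (Glycam1, Prox1, Lyve1) on the vertical axis, both in centred log2 units, with 1 point per tumour labelled by mouse. Mouse 20 (+/L) lies at the right, mouse 40 (+/+) at the upper left, and mice 11 and 101 (+/+) at the bottom.

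Other markers of the same sites were read beside the members. Counts of list genes at an unadjusted limma p under 0.05 stand beside the shares over all genes. These were 3.13% higher in +/L and 8.57% in both directions. With age as a covariate, the median difference of the lists below was -0.43 for spleen development factors, -1.32 for red pulp and 0.18 for marginal zone macrophages, -0.01 for sinusoidal and -0.66 for lymphatic endothelium, -0.77 for high endothelial venules, -0.68 for pan-endothelial markers and -1.10 for fibroblastic reticular cells. Where a list's median without age is positive and its median with age negative, its direction rests on how age is treated. Of 8 transcription factors of spleen development, 3 passed the filter and none had an unadjusted p under 0.05, with a median difference of 0.53. Tcf21, which spleen formation in the mouse requires, was highest in mouse 20, the tumour with the Tlx1 signal, at -2.07. In the other +/L tumours it lay between -5.76 and -4.34, against -6.32 to -5.12 in +/+ tumours, none of them well above background, which bounds the group difference at no less than 1.40-fold higher in +/L (limma adjusted p = 0.73). Without mouse 20 the +/L mean was -5.34 and no bound remained. Nr2f2, the orphan receptor of venous and lymphatic endothelium, differed by 0.53.

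Red pulp macrophage markers showed no common direction: of 10 tested, 1 was higher in +/L and 2 were lower at an unadjusted p under 0.05, and the median was -0.39. The 1 counted as higher was Cd163, the haemoglobin scavenger receptor, which passed the filter through +/L arrays alone. It was at least 5.54-fold higher in +/L (limma adjusted p = 0.54), being well above background on 3 +/L and no +/+ arrays. Its level was 1.27 in mouse 20 and -0.03 in mouse 866 at the top, and -3.64 in mice 688 and 23. In mouse 517 it was -7.48, among the +/+ values of -8.03 to -5.85. Without mouse 20 the bound was 2.78-fold. Nr1h3, which encodes the sterol receptor LXRα, differed by -1.27, and Spi1, which encodes PU.1, by -0.84. Cd5l, a macrophage-secreted protein, lay between 0.30 and 4.89 among +/L tumours, against 2.21 to 6.04 among +/+ tumours, highest in mouse 40. The mean of the 10 red pulp genes, each centred on the 10 tumours, was highest in mouse 866 (1.32) and next in mouse 40 (0.81). Mouse 40 thus ranked high on red pulp markers, although its spleen mean was the lowest. Of the 5 marginal zone macrophage markers, none had an unadjusted p under 0.05, with a median of 1.19. Cd209b, which encodes the lectin SIGN-R1 of marginal zone macrophages, was 4.71 in mouse 688 and -5.94 in mouse 11, and its difference was 2.65 (limma adjusted p = 0.64). It was well above background on 5 +/L and 4 +/+ arrays, so its lowest value may be a background value.

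Sinusoidal and lymphatic markers varied widely between tumours of both genotypes. Of 10 sinusoidal genes tested, 1 was higher and 1 lower in +/L at an unadjusted p under 0.05, with a median of 0.26. Mrc1, the mannose receptor, was 3.38 in mouse 866 and 2.46 in mouse 20, and its difference was 2.58 (limma adjusted p = 0.56). In +/L mice 688, 517 and 23 it was -0.28, -1.33 and -1.53. The highest +/+ values were -0.92 in mouse 19 and -1.09 in mouse 40, so the groups overlapped. Maf, a transcription factor of macrophages, T cells and sinusoidal endothelium, differed by -1.23. Of 11 lymphatic genes tested, none had an unadjusted p under 0.05, and the median was 0.17. Mmrn1, which encodes multimerin 1 of lymphatic endothelium, was lowest in mice 11 and 101, at -7.58 and -3.69, and highest in mouse 866, at 0.50, much as Prox1 was. Foxc2, a factor of lymphatic valves, was also lowest in mouse 11, at -7.16, and its difference was 0.17. Mmrn1 was well above background on 9 arrays and Foxc2 on 5, so their lowest values may be background values.

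High endothelial venule markers differed in both directions. Of 12 tested, 1 was higher and 1 lower in +/L at an unadjusted p under 0.05, and the median was -0.12. Selp, which encodes P-selectin, lay between -2.11 and -0.29 in +/L tumours, against -3.91 to -2.70 in +/+ tumours. Its difference was 1.54 (limma adjusted p = 0.54), and 3.13% of all genes had an unadjusted limma p under 0.05 and were higher in +/L. Chst2, a sulfotransferase of L-selectin ligands, differed by -0.88 (limma adjusted p = 0.54), with +/L levels between -2.61 and -1.77, against -2.12 to -0.84 in +/+ tumours. Gcnt1, which builds core 2 glycans on those ligands, was lowest in mouse 20 at -3.65 and highest in mouse 40 at 2.45. It was well above background on 4 +/L and 5 +/+ arrays.

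Endothelium as a whole was read through markers of all vessels. Of 12 pan-endothelial markers, all tested, none had an unadjusted p under 0.05, and the median difference was 0.15. Their summed signal, in units of each array's 75th percentile, was 38.5 to 57.7 in +/L and 23.0 to 76.6 in +/+ tumours, and 11 or 12 were well above background on each array. The score was lowest in mice 101 and 11, at -1.07 and -0.79, the tumours with the lowest Prox1 and Lyve1. With the endothelial score as a covariate, the difference was 2.50 for Nkx2-3, 1.78 for Madcam1, 1.24 for Prox1, 0.73 for Lyve1 and 1.77 for Glycam1.

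Reticular stroma was read in the same way. Of 12 fibroblastic reticular cell markers, none had an unadjusted p under 0.05, and the median was -0.15. Of 9 follicular dendritic cell markers, 1 was lower, with a median of -0.80. That gene, Sostdc1, an antagonist of BMP signals, was -5.10 in mouse 20 and at most 1.67 in +/L tumours, against 1.25 to 3.11 in +/+ tumours. Its difference was -2.89 (limma adjusted p = 0.56). It was well above background on 4 +/L and 5 +/+ arrays, so its lowest value may be a background value. Cxcl13, the chemokine that draws B cells into follicles, differed by -1.40 and was lowest in mouse 517 at 0.25. Of 10 lymphotoxin pathway genes, which organise this stroma, 1 was lower, with a median of -0.32: Relb, an NF-κB subunit, differed by -0.70. Of 8 partners of MAdCAM-1 and L-selectin on lymphocytes, none had an unadjusted p under 0.05, and the median was -0.17. Itga4, the α4 chain that binds MAdCAM-1, differed by 0.74.

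**Figure D4:**
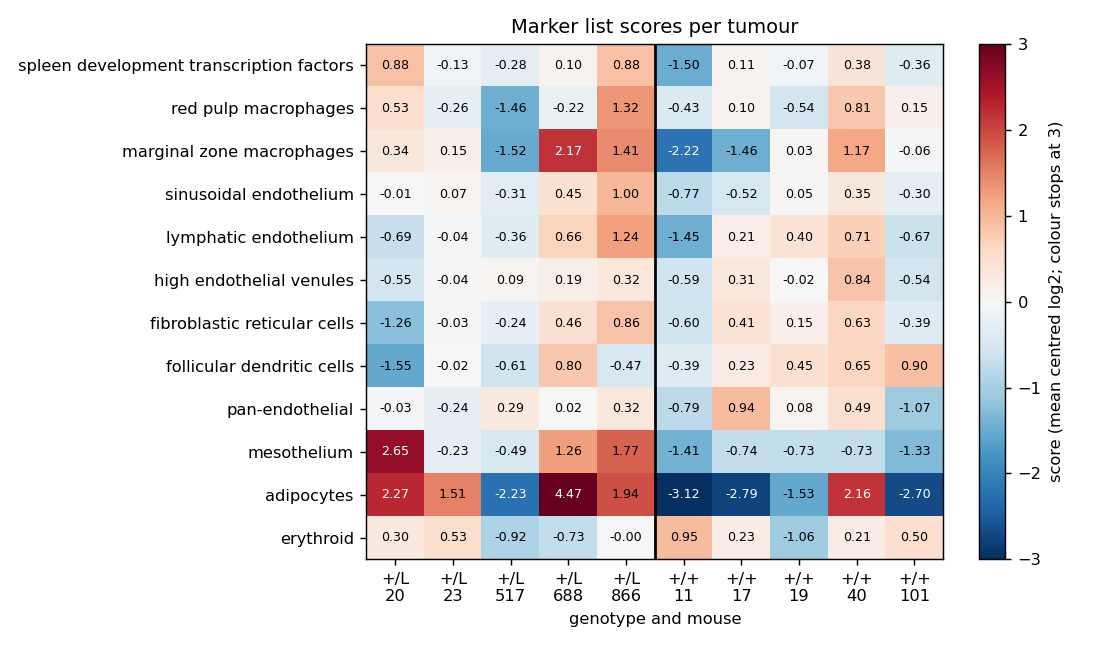
Score of each marker list in each tumour, the mean of its tested genes after centring each gene on the 10 tumours (log2 units, written in each cell), with the 5 +/L tumours left of the line and the 5 +/+ tumours right of it. Mouse 20 has the highest mesothelium score (2.65) and the lowest follicular dendritic cell score (-1.55), and mouse 11 the lowest lymphatic score (-1.45).

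Markers of cell types that could enter a dissected piece were read in the same way, since several moved with tumours that lead the members. Of 6 mesothelial markers, 5 were tested and 3 of these were higher in +/L at an unadjusted p under 0.05, with a median of 1.91. Over all genes, 3.13% were higher at that level. The 3 genes, Lrrn4, Upk3b and Msln, were well above background on 4, 3 and 3 +/L arrays, against 1, 0 and 1 +/+ arrays. They passed the filter mainly through +/L arrays, so their count sets signals against values near background. For Upk3b the bound was 0.89-fold, so no difference could be measured. The list's summed signal was up to 3.32 in +/L and 0.39 in +/+ tumours, 1 to 6 of its genes were well above background on +/L arrays and 0 to 3 on +/+ arrays, and the score was highest in mice 20, 866 and 688. Of 7 adipocyte markers, 6 were tested and 3 of these were higher at an unadjusted p under 0.05, with a median of 2.95. The share over all genes was again 3.13%. The 3 genes, Cfd, Cidec and Retn, were well above background on 5, 5 and 4 +/L arrays, against 4, 2 and 1 +/+ arrays. The summed signal of the adipocyte list reached 164.3 in +/L and 52.4 in +/+ tumours. Cfd, the adipocyte factor adipsin, was -2.31 to 5.87 in +/L, against -5.07 to 4.17 in +/+ tumours. In +/L tumours the adipocyte score was 2.27 in mouse 20, 1.51 in 23, -2.23 in 517, 4.47 in 688 and 1.94 in 866, against -3.12 in mouse 11, -2.79 in 17, -1.53 in 19, 2.16 in 40 and -2.70 in 101. Of the 4 tumours with the most Glycam1, mice 688, 40 and 23 had high adipocyte scores and mouse 517 a low one. Mice 20 and 866 also had high adipocyte scores, with lower Glycam1 levels of 0.92 and 2.98. Lymphoid content differed too: the B-cell score was -1.74 in mouse 866 and at least -0.14 in every other tumour, and the T-cell score was lowest in mouse 20, at -1.94. Mouse 866 had the highest Nkx2-3, Spic, Lyve1 and Prox1 levels, and mouse 20 the highest Tlx1 level. The part of these cell types in the levels of the site genes was not tested.

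The genes whose levels ran most like each member over the tumours were found by Pearson correlation among the tested genes, as a description over 10 arrays of 1 platform, which share slides and tumour content. For Prox1 they were Kcnj16 (r = 0.98, rho = 0.84) and Mmrn1 (r = 0.97, rho = 0.83), with Irf2bpl and Ogn also among the nearest. Without mice 101 and 11 the correlation with Mmrn1 was 0.75 and with Kcnj16 0.77. For Spic they were Adgrg3 (r = 0.95), Flot1 (0.92), Adam8 (0.90), Treml4 (0.88) and Chl1 (0.87). Treml4, a receptor of red pulp macrophages and CD8+ dendritic cells, kept r = 0.92 without mice 11 and 866, while Adam8, a metalloproteinase, was at 0.53.

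For Lyve1 the nearest were Crispld2 (r = 0.95, 0.88 without mice 866 and 11), Slc38a4, C1qtnf7, Cpne8 and Pcsk6. For Stab2 they were Ifngr1, the interferon-γ receptor (r = 0.94, and 0.94 without mice 866 and 40), Osmr, Fzd1 and Sqor. For Glycam1 they were Vps36 (r = 0.91, 0.90 without mice 517 and 101), Camkk2, Bpifb5, Emid1 and Fam219b. For Madcam1, over 9 tumours, they were Dnajc27 (r = 0.96, 0.93 without mice 866 and 517), Rpe, Zbtb1, Hccs and Zfp322a. For Nkx2-3 they were Art2b (r = 0.89, 0.78 without mice 17 and 40), Fgf21, Scgb3a1, Cd164 and Ltv1, and the correlation with Cd164 was 0.26 without those mice. The likeness to Nkx2-3 of Scgb3a1 and Cd164 therefore rests on mice 17 and 40.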

How the data were processed

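Each of 10 tumours was hybridised to 1 Agilent array (Cy3). The deposited spot intensity came from Feature Extraction, version 10.5.1.1 of the Agilent software as the file headers name it, and a flag beside it says whether a spot was well above background. The authors' value table is deposited on a log2 scale, with its background method not given in the sources used here, and served as an alternative. From the processed intensity, log2 minus the array's 75th percentile was taken, control and outlier-flagged spots were left out, and 26479 probes were kept that at least 3 of 10 arrays measured well above background. The brightest kept probe represented a gene, a probe with a value on every array being taken before one without, as for Spic. Probe names were updated through a RefSeq gene table, which matched 25097 through accessions, 6333 through current symbols and 1640 through older ones, while 8104 stayed as in the files. Exon and UTR annotation was not used here.

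Genotypes were compared in R 4.3.3 by limma 3.58.1, and p-values were adjusted over all 17804 genes (Benjamini-Hochberg). The procedure was tested on simulated data. Each mouse number was taken as a separate animal, and the number of arrays limits the precision. Alternatives varied background correction, scaling, filter, probe choice, slide, age, endothelial score and the mice included. The site genes and marker lists were chosen with earlier results of these data known. Genes named are all 8 site genes, the 5 most correlated named genes of each tested one (clone-type names left out), the 3 genes of lowest p in each list and, in 5 site lists, the 2 of largest SD; some genes under this rule are not reported here. Promoter sequences are from RefSeq (GRCm38.p6).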

Additional observations from a re-analysis of the deposited data

Results flagged for a closer look

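In 28 groups of values tested for a single tumour far from the rest (Dixon's test, which chance passes in about 1 of 20 groups), 4 values stood apart. In +/L tumours, Madcam1 was -3.25 in mouse 20, Spic was 1.81 in mouse 866 (probe A_52_P361323), and Prox1 was -2.34 in mouse 20 with the probe A_51_P369058. In +/+ tumours, Prox1 was -7.38 in mouse 11 with that same probe, which was not well above background there.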

How the results depend on the processing

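All 8 site genes stayed short of an adjusted p of 0.05 in every alternative that tested them by limma. Genes called at that threshold over the whole table numbered 0 with all 10 mice, 1 with normexp and quantile normalisation, 1 in the authors' value table, and 0 to 3 when one mouse was left out. Genes with an unadjusted p under 0.05 numbered 1525, 669 with the description labels' slide as a block, 2523 without mice 20 and 11 (an alternative added after seeing the data, as was leaving out mice 866 and 17 and keeping outlier spots), and 913 to 2317 with one mouse left out, lowest without mouse 101 and highest without mouse 20. Spic turned negative with the mean over its probes (-0.012), age (-0.74), the endothelial score (-0.0058), female-labelled mice (-0.017), without mice 866 and 17 (-0.22) and without mice 20 and 11 (-0.026), and ranged from -0.24 to 0.13 with one mouse left out. Lyve1 turned negative with age (-0.29). By an exact two-sided permutation test the unadjusted p was 0.024 for Nkx2-3 and 0.048 for Prox1, where limma gave 0.021 and 0.056. The cause was not tested. Without a filter on dim probes Tlx1 had a limma adjusted p of 0.93. Madcam1 and Prox1 gave no value where probes had to be above background on all 10 arrays. No paired analysis was possible because the genotypes share no mouse numbers.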

Other observations

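Markers of tissues outside lymphoid stroma were read as well. Of 7 exocrine pancreas genes tested, 2 were lower in +/L at an unadjusted p under 0.05, with a median of -1.21. Cel, the bile salt lipase of acinar cells, was highest in mouse 19 (+/+) at -0.69. Of 3 hepatocyte genes tested, 1 was higher, the cytochrome gene Cyp2e1, with a difference of 2.83 (limma adjusted p = 0.57). It was well above background on 3 +/L arrays and 1 +/+ array. Of the 2 mammary genes set beside Glycam1 above, both were lower at that level, with a median of -1.85. Of 5 intestinal epithelial genes tested, 1 was lower, the fatty acid binding protein gene Fabp2, with a difference of -1.03, and the median was -0.13. None of 4 thymic epithelial genes had an unadjusted p under 0.05, with a median of 0.06, and Krt8, a keratin, was 3.90 in mouse 20 and at most -1.37 elsewhere.

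Of 7 megakaryocyte and platelet genes tested, 2 were higher in +/L and 1 lower at an unadjusted p under 0.05, with a median of -0.19. Pf4, platelet factor 4, differed by 1.33 and Itga2b, the platelet integrin chain, by 1.32, while Gp9, a subunit of the von Willebrand factor receptor, differed by -1.26. Erythroid genes had none of 6 at that level and a median of -0.36, and B-cell and T-cell genes had none of 8 each, with medians of -0.30 and -0.46. With age as a covariate the B-cell median was 0.90.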
